A study of Homo sapiens with 9 samples.

Results

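The alpha subunits of heterotrimeric G proteins were followed in human HEK293 Flp-In T-REx cells, an embryonic kidney line in which an inserted gene is switched on with tetracycline. The 10 genes are GNAO1, GNAI1, GNAI2, GNAI3, GNAZ, GNAS, GNAQ, GNA11, GNA12 and GNA13, taken by symbol from count tables that list 60664 genes. The members were chosen by hand round GNAO1, whose change in these libraries was already known, so its values are given as a description with no test. All 10 passed the filter on low counts, which left 18299 genes. RNA of 9 libraries was compared, 3 in each group. The first group was cells with a microRNA against TTC33, the second cells with a microRNA against CCDC97, and the third control cells, which lack any such microRNA. Tetracycline was given to every group for 3 days at 100 ng/ml, the controls included. TTC33 is the name-giving protein of a network with PHF5A and WDR61, and the study asked how loss of TTC33 or of CCDC97 alters gene expression. Whether replicates come from separate cultures, and how many clones each line stands for, is not in the labels. The p-values therefore reflect only how far these libraries vary, and that variation may be technical. Both comparisons with control use the same control libraries.

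A G protein couples a receptor in the cell membrane to an effector inside. In its resting state the alpha subunit holds GDP and sits on a beta-gamma pair. An activated receptor makes it take up GTP and part from beta-gamma, and both then act on effectors until the alpha subunit hydrolyses its GTP. The alpha subunits fall into 4 classes. Gi/o proteins, here GNAO1, GNAI1, GNAI2, GNAI3 and GNAZ, lower cyclic AMP or act through their beta-gamma pairs. GNAS encodes the Gs subunit that stimulates adenylyl cyclase, and GNAQ and GNA11 activate phospholipase C-beta. GNA12 and GNA13 form the G12/13 class. GNAO1 is best known as an abundant alpha subunit of neurons, where it mediates inhibition of calcium channels and opening of GIRK potassium channels.

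All positions are on GRCh38, from GENCODE release 29. GNAO1 (ENSG00000087258) lies on the plus strand of chromosome 16, from 56191347 to 56357457, with 18 merged exon blocks over 26 annotated transcripts. GNAI1 (chromosome 7, 79768028 to 80226181), GNAI2 (chromosome 3, 50226292 to 50259355), GNAI3 (chromosome 1, 109548611 to 109618321) and GNAZ (chromosome 22, 23070361 to 23125037) are on plus strands. GNAS (chromosome 20, 58839718 to 58911192) and GNA11 (chromosome 19, 3094410 to 3124004) are on plus strands too. GNAQ (chromosome 9, 77716087 to 78031458), GNA12 (chromosome 7, 2728112 to 2844324) and GNA13 (chromosome 17, 65010715 to 65056839) are on minus strands. GNAO1 shares 607 exon bases, 4.43% of its exons, with the antisense gene DKFZP434H168. GNA11 shares 452 bases with the antisense gene AC005262.2 and 472 with KF456478.1, and GNAS shares 1127 with GNAS-AS1. GNAZ shares 274 bases with RSPH14 on the other strand, and GNAI3 shares 1339 with GNAT2. The strand setting of the counting is not given in the sources used here, so reads from such stretches cannot be told apart.

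The promoters of GNAO1 and GNA11 are shown because these are the members whose levels were above control in every TTC33 knock-down library by the largest fold. Each is a window of 300 bases, most of it before the RefSeq start, on GRCh38.p14, 5′ to 3′ on the plus strand. The windows are chr16:56191239-56191538 and chr19:3094112-3094411. Capitals mark the GC box GGGCGG and the cyclic AMP response element TGACGTCA, read on both strands.
GNAO1: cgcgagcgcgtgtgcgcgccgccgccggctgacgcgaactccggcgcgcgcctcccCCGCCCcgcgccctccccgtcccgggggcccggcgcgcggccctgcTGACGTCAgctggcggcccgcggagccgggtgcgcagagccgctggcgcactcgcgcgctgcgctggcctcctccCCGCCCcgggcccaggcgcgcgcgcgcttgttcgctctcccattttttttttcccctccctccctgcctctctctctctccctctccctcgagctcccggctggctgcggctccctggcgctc
GNA11: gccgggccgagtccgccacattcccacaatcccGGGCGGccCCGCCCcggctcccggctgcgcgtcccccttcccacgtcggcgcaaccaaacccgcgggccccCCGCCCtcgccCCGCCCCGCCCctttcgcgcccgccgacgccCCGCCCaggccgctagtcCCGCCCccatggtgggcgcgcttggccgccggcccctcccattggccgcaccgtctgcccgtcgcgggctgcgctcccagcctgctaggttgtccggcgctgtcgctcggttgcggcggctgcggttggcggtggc
The GNAO1 window holds 1 cyclic AMP response element and 2 GC boxes. The GNA11 window holds 7 GC boxes, counted with overlaps, and no cyclic AMP response element. This element is in 1.85% of all 35116 promoter windows in the RefSeq table, and at least 1 GC box is in 44.95% of them. Of the members, 8 have windows in the table (18 windows in all), and the GNAO1 window alone among these 18 holds the full element. GC content is 78.3% in the GNAO1 window and 79.3% in the GNA11 window, against a median of 58.7% over all windows. A match of letters is a description and not a site.

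Counts assigned to genes came to between 21764203 and 36110891 per library. Each microRNA lowered its own target by edgeR's quasi-likelihood test with Benjamini-Hochberg adjustment over all genes: TTC33 had a fold change of -2.34 ± 0.21 on the log2 scale (SE, adjusted p = 0.000106) and CCDC97 of -1.94 ± 0.12 (adjusted p = 1.24e-05). In both knock-downs replicate 1 differed from the other libraries of its group in how levels followed GC content. In TTC33 knock-down replicates 1, 2 and 3 the genes of the lowest decile of GC content had median log2 differences from the control mean of 0.031, -0.42 and -0.46. The corresponding values were -0.14, 0.15 and 0.16 in CCDC97 knock-down replicates 1, 2 and 3. Of 9 markers of the embryonic kidney lineage, 7 were above 1 CPM (counts per 1e+06, on TMM-scaled library sizes) in every library. Markers of blood cells summed to at most 1.91 CPM over 8 genes and those of endothelium to at most 2.08 CPM over 6 genes. The 8 fibroblast markers summed to 13.7 to 16.9 CPM in the TTC33 knock-down, 16.8 to 19.4 CPM in the CCDC97 knock-down and 14.0 to 14.8 CPM in control. Of these, COL3A1 rose in the CCDC97 knock-down to 7.16 ± 0.66 CPM, against 3.31 ± 0.65 CPM in control (edgeR adjusted p = 0.00333), in all 9 fits that each leave out a different library.

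GNAO1 mRNA was 2.47-fold higher in the TTC33 knock-down than in control and lower, at 0.668 of the control level, in the CCDC97 knock-down. It had 35.1, 40.5 and 44.0 CPM in TTC33 knock-down replicates 1, 2 and 3, from 1091, 1167 and 1149 counts. In the CCDC97 knock-down it had 13.6, 9.32 and 9.29 CPM, from 383, 282 and 192 counts, and in control 16.9, 15.4 and 16.04 CPM, from 611, 565 and 506 counts. The 3 groups did not overlap. On the log2 scale the spread was widest in the CCDC97 knock-down, where replicate 1 lay nearest to control. The mean was 39.8 ± 4.48 CPM in the TTC33 knock-down, 10.7 ± 2.45 CPM in the CCDC97 knock-down and 16.1 ± 0.76 CPM in control (SD, n = 3). On the log2 scale the TTC33 knock-down differed from control by 1.31 and the CCDC97 knock-down by -0.58. The TTC33 knock-down set against the CCDC97 knock-down gave 1.89, a 3.70-fold difference. Leave-one-out fits, each without 1 of the 9 libraries, gave 1.22 to 1.39 in the TTC33 knock-down and -0.79 to -0.49 in the CCDC97 knock-down. An adjustment for GC content and transcript length gave 1.20 in the TTC33 knock-down and a difference of -0.53 in the CCDC97 knock-down. All values are from the count table of each sample marked R12; the smaller one, marked U, held 36.5 ± 9.75 CPM of GNAO1 in the TTC33 knock-down, 9.78 ± 2.65 CPM in the CCDC97 knock-down and 14.4 ± 1.51 CPM in control. In bulk RNA a change in the number of cells that hold a transcript and in its amount per cell cannot be told apart.

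**Figure D1:**
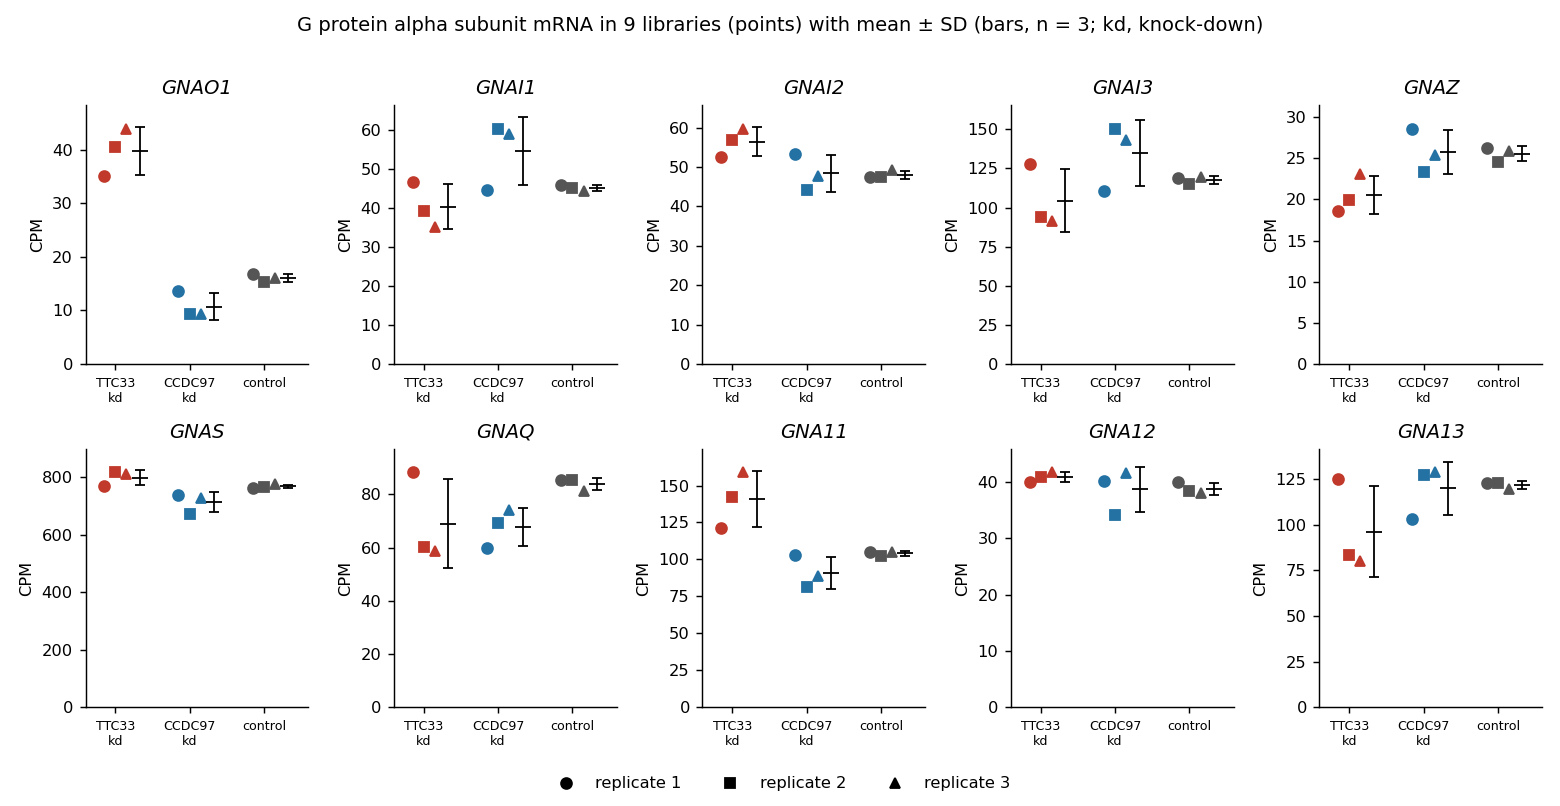
CPM (vertical axes, from 0) of each alpha subunit in the TTC33 knock-down (left, red), the CCDC97 knock-down (middle, blue) and control (right, grey); each point is a library, shapes give the replicate, and bars give mean ± SD. GNAO1 falls into 3 separate groups, while GNAI3, GNAQ and GNA13 differ most between replicate 1 and the other two libraries of the TTC33 knock-down.

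Beside GNAO1, 1 of the 9 members passed the test in the TTC33 knock-down against control, GNA11, and none in the CCDC97 knock-down. Over all genes, 11.9% passed in the TTC33 knock-down (6.5% upward and 5.44% downward) and 4.56% in the CCDC97 knock-down (2.07% upward and 2.49% downward). The members' shares, 1 of 9 and 0 of 9, are near this background. At an unadjusted p under 0.05, 4 of the 9 were called in the TTC33 knock-down, against 0 of the 9 in the CCDC97 knock-down. The share of all genes at this unadjusted cut was not counted, so these counts cannot be set against 11.9% and 4.56%. The same holds for the unadjusted counts of the gene lists below. DESeq2's Wald test called 2 in the TTC33 and 0 in the CCDC97 knock-down. The median log2 fold change of the 9 was -0.16 in the TTC33 knock-down, against 0.0045 over all genes, and -0.0063 in the CCDC97 knock-down, against 0.00083. Of the 9, 3 did not overlap with control in the TTC33 knock-down (GNAI2, GNAZ and GNA11) and 2 in the CCDC97 knock-down (GNAS and GNAQ), while 36.8% of all genes did not overlap in the TTC33 knock-down, with 29.9% of them in the CCDC97 knock-down.

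Among the Gi/o subunits, GNAI2, the widely expressed inhibitory subunit, had 52.5, 57.0 and 59.8 CPM in the TTC33 knock-down, 53.5, 44.2 and 47.7 CPM in the CCDC97 knock-down and 47.5, 47.4 and 49.2 CPM in control. Every TTC33 knock-down library was above every control library, but the log2 fold change of 0.23 ± 0.085 (SE) did not pass (edgeR adjusted p = 0.0956), and its 95% interval was 0.023 to 0.44. The GC and length adjustment gave 0.090 (adjusted p = 0.174). In the CCDC97 knock-down it was 0.013 (adjusted p = 0.958; interval -0.20 to 0.22). GNAZ, the Gz subunit, which is insensitive to pertussis toxin, had 18.6, 19.9 and 23.1 CPM in the TTC33 knock-down, 28.6, 23.3 and 25.4 CPM in the CCDC97 knock-down and 26.3, 24.5 and 25.9 CPM in control. All TTC33 knock-down libraries were below all control libraries, with a log2 fold change of -0.32 ± 0.10 and an adjusted p of 0.07. That value moved to -0.47, past the threshold, with the GC and length adjustment (adjusted p = 0.000134). The CCDC97 knock-down gave 0.011 (adjusted p = 0.972; interval -0.24 to 0.27).

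GNAI1 and GNAI3 encode close relatives of GNAI2 that also inhibit adenylyl cyclase. GNAI1 had 46.5, 39.2 and 35.2 CPM in the TTC33 knock-down, 44.6, 60.3 and 59.0 CPM in the CCDC97 knock-down and 45.8, 45.0 and 44.5 CPM in control. GNAI3 had 127.7, 94.1 and 91.7 CPM in the TTC33 knock-down, 110.6, 150.4 and 143.4 CPM in the CCDC97 knock-down and 119.0, 114.9 and 119.6 CPM in control. For both genes, replicates 2 and 3 were below control in the TTC33 knock-down and above it in the CCDC97 knock-down, and replicate 1 was within 0.12 of the control mean on the log2 scale. In the fit of all 9 libraries neither gene passed against control. GNAI1 had a log2 fold change of -0.16 ± 0.13 in the TTC33 knock-down (adjusted p = 0.409) and of 0.28 ± 0.13 in the CCDC97 knock-down (adjusted p = 0.243). GNAI3 had -0.17 ± 0.14 in the TTC33 knock-down (adjusted p = 0.414) and 0.19 ± 0.14 in the CCDC97 knock-down (adjusted p = 0.467). Without TTC33 knock-down replicate 1, GNAI3 passed in the TTC33 knock-down at -0.34 (adjusted p = 0.023). Without CCDC97 knock-down replicate 1, GNAI1 passed in the CCDC97 knock-down at 0.40 (adjusted p = 0.0407). With the GC and length adjustment GNAI1 had 0.0071 in the TTC33 knock-down (adjusted p = 0.952) and passed in the CCDC97 knock-down at 0.23 (adjusted p = 0.0198). GNAI3 then had -0.099 in the TTC33 knock-down (adjusted p = 0.362) and 0.16 in the CCDC97 knock-down (adjusted p = 0.169).

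Summed per length, the Gi/o subunits lay close together in the 3 groups, while the GNAO1 share of the sum did not overlap. Divided by merged exon length, the 5 Gi/o genes summed to 21.1 ± 0.64 CPM per kb in the TTC33 knock-down, 21.0 ± 0.42 in the CCDC97 knock-down and 20.3 ± 0.45 in control (SD, n = 3). GNAO1 made up 12.2%, 14.3% and 14.7% of that sum in TTC33 knock-down replicates 1, 2 and 3. Its share was 4.64%, 3.31% and 3.20% in the CCDC97 knock-down and 5.998%, 5.67% and 5.69% in control. GNAZ made up 25.3% ± 2.16 in the TTC33 knock-down, 31.9% ± 2.75 in the CCDC97 knock-down and 32.8% ± 0.50 in control. GNAI2 was the largest contributor in the TTC33 knock-down, at 34.9% ± 1.76, and made up 30.1% ± 2.40 in the CCDC97 knock-down and 30.9% ± 0.62 in control. These shares contain GNAO1 or are set against it, and are a description.

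**Figure D2:**
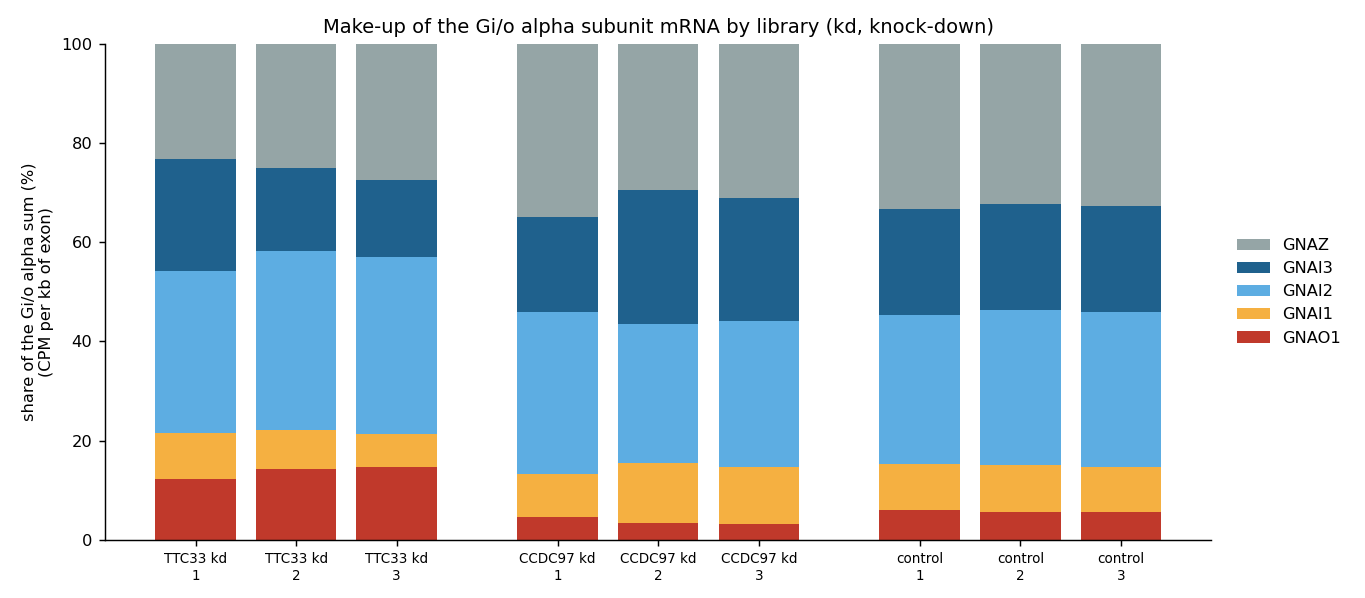
Share of each Gi/o alpha subunit in the Gi/o sum (vertical axis, percent of CPM per kb of exon) for every library, with the TTC33 knock-down on the left, the CCDC97 knock-down in the middle and control on the right. The GNAO1 segment at the bottom is 12.2% to 14.7% in the TTC33 knock-down, 3.20% to 4.64% in the CCDC97 knock-down and 5.67% to 5.998% in control.

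GNAS, the Gs subunit and the most abundant member, passed in neither knock-down. It had 768.8, 817.9 and 810.0 CPM in the TTC33 knock-down, 737.9, 672.8 and 729.6 CPM in the CCDC97 knock-down and 762.6, 766.5 and 775.7 CPM in control. The TTC33 knock-down overlapped with control and all CCDC97 knock-down libraries lay below it. Its log2 fold change was 0.056 ± 0.061 in the TTC33 knock-down (edgeR adjusted p = 0.56; 95% interval -0.093 to 0.21) and -0.11 ± 0.061 in the CCDC97 knock-down (adjusted p = 0.358; interval -0.26 to 0.043). The locus is imprinted and has several promoters, and the counts cover all its transcripts together.

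GNA11 rose in the TTC33 knock-down. It had 121.3, 142.3 and 159.0 CPM there, 102.9, 81.2 and 88.5 CPM in the CCDC97 knock-down and 105.2, 102.4 and 105.2 CPM in control. Every TTC33 knock-down library was above every control library, and replicates 2 and 3 of the CCDC97 knock-down were below. The log2 fold change was 0.43 ± 0.11 in the TTC33 knock-down, 1.35-fold (edgeR adjusted p = 0.0279), and -0.20 ± 0.11 in the CCDC97 knock-down (adjusted p = 0.331; interval -0.46 to 0.066). In 5 of the 9 leave-one-out fits GNA11 no longer passed: without TTC33 knock-down replicate 2 (log2 fold change 0.43, adjusted p = 0.0982), TTC33 knock-down replicate 3 (0.33, adjusted p = 0.128), or control replicate 1, 2 or 3 (0.44, 0.42 and 0.44, adjusted p = 0.101, 0.111 and 0.0899). The GC and length adjustment gave 0.24 (adjusted p = 0.00307), and exons of GNA11 have the highest GC content of the members, 61.7%.

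GNAQ, the other Gq/11 subunit of the list, did not pass in either knock-down. It had 88.3, 60.1 and 58.6 CPM in the TTC33 knock-down, 59.8, 69.2 and 74.1 CPM in the CCDC97 knock-down and 85.2, 85.2 and 81.2 CPM in control. Replicate 1 of the TTC33 knock-down was above all controls and replicates 2 and 3 below, while all CCDC97 knock-down libraries were below control. The log2 fold changes were -0.28 ± 0.14 in the TTC33 knock-down (edgeR adjusted p = 0.202) and -0.31 ± 0.14 in the CCDC97 knock-down (adjusted p = 0.25). Without TTC33 knock-down replicate 1 both passed, at -0.50 in the TTC33 knock-down (adjusted p = 0.000963) and -0.31 in the CCDC97 knock-down (adjusted p = 0.0226). With the GC and length adjustment GNAQ had -0.088 in the TTC33 knock-down (adjusted p = 0.277) and -0.37 in the CCDC97 knock-down (adjusted p = 0.000532).

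The groups of GNA12 overlapped, and GNA13 varied between replicates of the knock-downs. GNA12 had 40.0, 40.9 and 41.8 CPM in the TTC33 knock-down, 40.3, 34.1 and 41.7 CPM in the CCDC97 knock-down and 40.0, 38.4 and 38.1 CPM in control. Its log2 fold changes were 0.074 ± 0.085 in the TTC33 knock-down (edgeR adjusted p = 0.582; interval -0.13 to 0.28) and -0.0063 ± 0.085 in the CCDC97 knock-down (adjusted p = 0.98; interval -0.22 to 0.20). GNA13 had 124.8, 83.3 and 80.1 CPM in the TTC33 knock-down, 103.2, 127.3 and 128.6 CPM in the CCDC97 knock-down and 122.7, 122.9 and 119.3 CPM in control. Its replicate 1 lay at the control level in the TTC33 knock-down and below it in the CCDC97 knock-down. Its log2 fold change was -0.34 ± 0.15 in the TTC33 knock-down (adjusted p = 0.152) and -0.024 ± 0.15 in the CCDC97 knock-down (adjusted p = 0.953). Without TTC33 knock-down replicate 1 the TTC33 knock-down gave -0.58 and passed (adjusted p = 0.000486). The GC and length adjustment gave -0.19 in the TTC33 knock-down (adjusted p = 0.0609) and -0.087 in the CCDC97 knock-down (adjusted p = 0.425).

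Set directly against the CCDC97 knock-down, the TTC33 knock-down had 1 of the 9 members higher and 2 lower, where 21.5% of all genes passed (11.3% upward and 10.2% downward). GNA11 was higher by a log2 fold change of 0.63 ± 0.11 (edgeR adjusted p = 0.00345), passed in all 9 leave-one-out fits, and was 0.30 with the GC and length adjustment. GNAI1 was lower, with a log2 fold change of -0.44 ± 0.13 (adjusted p = 0.0329), and so was GNAZ, with -0.33 ± 0.10 (adjusted p = 0.0472). GNAI1 passed in 2 of the 9 such fits, those without replicate 1 of either knock-down. GNAZ passed in 1, without TTC33 knock-down replicate 3. In the remaining fits adjusted p ran up to 0.135 for GNAI1 and 0.151 for GNAZ. With the GC and length adjustment GNAI1 (-0.22, adjusted p = 0.0172) and GNAZ (-0.57, adjusted p = 2.1e-05) passed, and so did GNAI3 (-0.26, adjusted p = 0.021) and GNAQ (0.28, adjusted p = 0.0024). In this comparison GNAS, GNA11 and GNAZ did not overlap, against 30.4% of all genes.

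**Figure D3:**
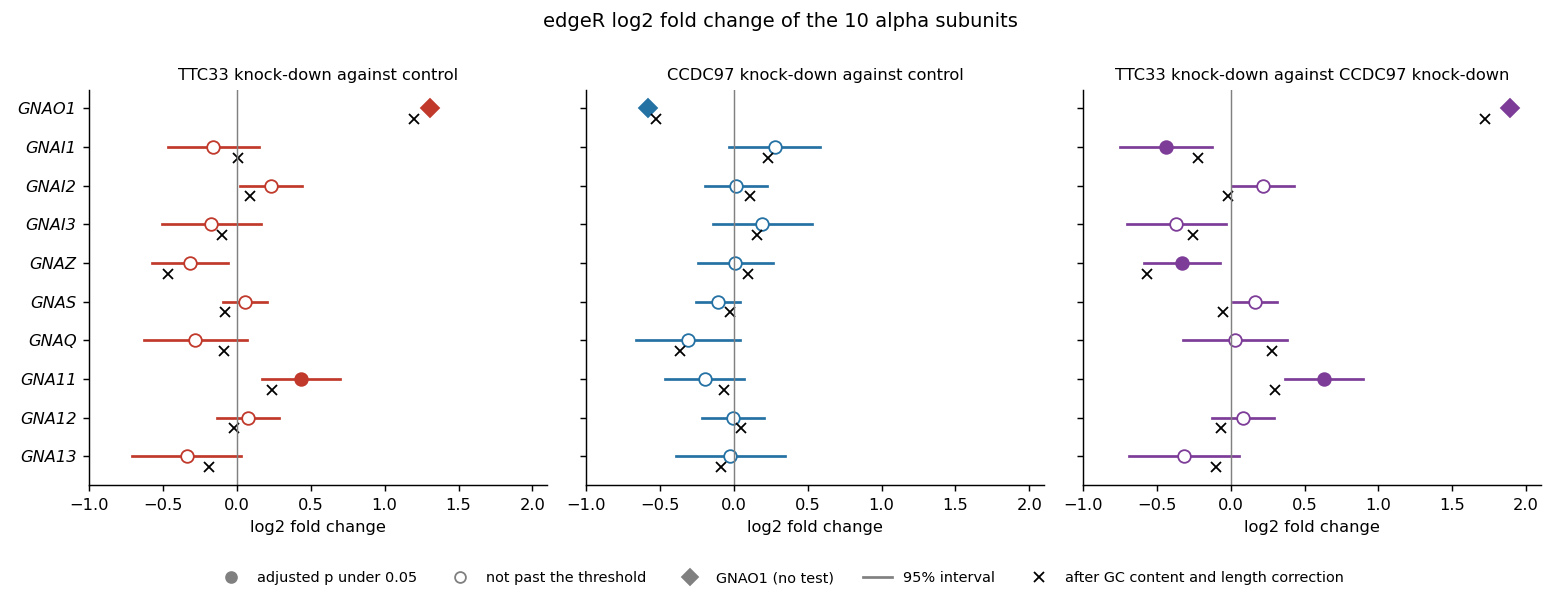
edgeR log2 fold change (horizontal axis) of the 10 members in the TTC33 knock-down (left) and the CCDC97 knock-down (middle), each against control, and between both knock-downs (right, TTC33 over CCDC97); lines are 95% intervals, filled circles passed the threshold, diamonds mark GNAO1 (no test) and crosses give the value adjusted for GC content and length. GNAO1 stands at 1.31, -0.58 and 1.89, while the other members lie between -0.44 and 0.63.

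In exon-length units, levels (CPM per kb of merged exon) put GNAS first in every group, at 60.0 ± 1.98 in the TTC33 knock-down, 53.6 ± 2.66 in the CCDC97 knock-down and 57.7 ± 0.50 in control. In control GNA13 (23.8), GNA11 (16.7) and GNAQ (12.7) followed. GNAZ (6.66), GNA12 (6.35) and GNAI2 (6.28) came next with overlapping ranges, before GNAI3 (4.34), GNAI1 (1.86) and GNAO1 (1.18), the lowest. GNAO1 was lowest in the CCDC97 knock-down too, at 0.78 ± 0.18, where GNAZ, GNAI2 and GNA12 again overlapped. In the TTC33 knock-down GNAO1, at 2.91 ± 0.33, was above GNAI1, at 1.67 ± 0.24, with no overlap. GNA11 (22.6 ± 3.03) and GNA13 (18.8 ± 4.88) overlapped there. Merged exon lengths range from 3840 bases for GNAZ to 27174 for GNAI3 and include exons of rare transcripts, which lowers the values of genes with many of them.

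The members fall into genes of low and of high GC content, and the genes of low GC content shared a split between replicates. Exons of GNAI1, GNAQ, GNA13 and GNAI3 have 38.9%, 39.3%, 40.8% and 41.8% GC, and those of the other 6 genes 53.8% to 61.7%. In TTC33 knock-down replicates 2 and 3 the 4 genes of low GC content had log2 differences from the control mean of -0.60 to -0.20, and in replicate 1 of 0.037 to 0.12. GNAO1, at 53.8% GC, had log2 differences of 1.12, 1.33 and 1.45 in TTC33 knock-down replicates 1, 2 and 3, and of -0.25, -0.78 and -0.79 in those of the CCDC97 knock-down. The part of the GC trend in the values of single members was not tested beyond the GC and length adjustment.

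**Figure D4:**
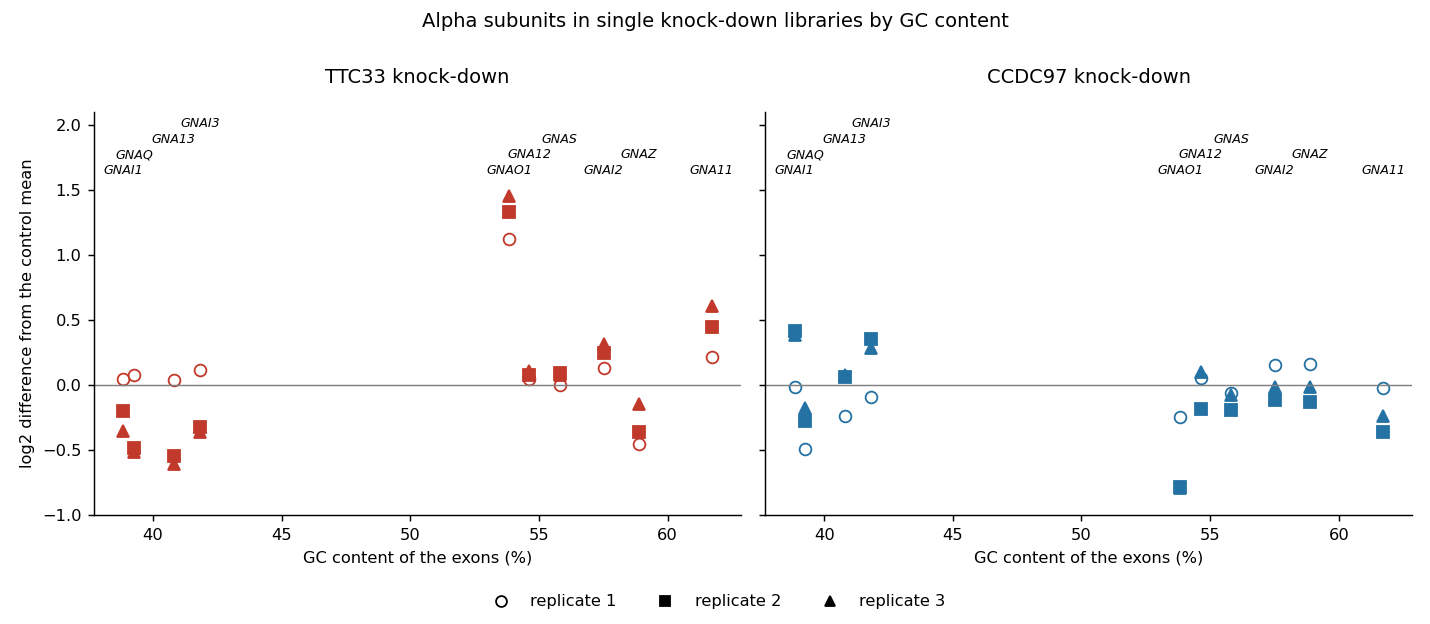
Log2 difference of each member from the control mean (vertical axis) against the GC content of its exons (horizontal axis, percent), with the TTC33 knock-down on the left and the CCDC97 knock-down on the right; open circles are replicate 1, squares replicate 2 and triangles replicate 3. The 4 genes under 42% GC lie below 0 in TTC33 knock-down replicates 2 and 3 and just above 0 in replicate 1, and GNAO1 lies above the other members in every TTC33 knock-down library.

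Of 6 other alpha subunit genes, only GNAL and GNAT2 had enough counts to test. GNAL, the olfactory relative of GNAS, fell in the TTC33 knock-down to 40.2 ± 2.14 CPM, against 52.8 ± 0.23 CPM in control (log2 fold change -0.39, edgeR adjusted p = 0.0105). It passed in 7 of 9 leave-one-out fits. In the CCDC97 knock-down it had 47.4 ± 3.32 CPM and did not pass (-0.15, adjusted p = 0.281). GNAT2, the cone transducin, had between 8 and 23 counts per library and did not pass in either knock-down.

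Among the subunits that pair with alpha, 2 of 5 beta genes fell in the TTC33 knock-down and none rose, and 1 of 7 gamma genes tested (of 12 listed) rose. Over all genes 6.5% rose and 5.44% fell there. GNB1 had 282.8 ± 11.8 CPM in the TTC33 knock-down, against 333.1 ± 2.61 CPM in control (log2 fold change -0.24, edgeR adjusted p = 0.0314). GNB4 had 94.4, 57.8 and 57.5 CPM in TTC33 knock-down replicates 1, 2 and 3, against 114.0, 116.9 and 105.8 CPM in control (-0.68, adjusted p = 0.0301). Both passed in 4 of 9 leave-one-out fits, those without TTC33 knock-down replicate 1 or without a CCDC97 knock-down library. Without TTC33 knock-down replicate 2 or 3, or any control library, neither passed. GNGT1, a gamma subunit of rod transducin, rose by 0.48 (adjusted p = 0.0342), with 6.55, 6.83 and 7.46 CPM in the TTC33 knock-down against 5.94, 4.46 and 4.50 CPM in control, passed in 3 of 9, and had 0.87 with the GC and length adjustment (adjusted p = 0.0021). No beta or gamma gene passed edgeR's test in the CCDC97 knock-down, none was under an unadjusted p of 0.05, and DESeq2's Wald test called none. With GC and length adjusted, 1 gamma gene was called higher there, GNG12 (0.20, adjusted p = 0.0278). The median log2 fold change of the beta genes was -0.18 in the TTC33 knock-down, with -0.070 for them in the CCDC97 knock-down. For the gamma genes it was 0.062 in the TTC33 knock-down, with 0.20 for them in the CCDC97 knock-down.

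RGS proteins speed GTP hydrolysis by alpha subunits. Of 13 tested (20 listed), RGS9 fell in the TTC33 knock-down, to 6.07 ± 0.70 CPM against 8.60 ± 0.46 CPM in control (log2 fold change -0.51, edgeR adjusted p = 0.0166). RGS2 rose there, to 10.3 ± 0.84 CPM against 7.81 ± 0.28 CPM in control (0.40, adjusted p = 0.0389). RGS9 passed in 5 and RGS2 in 3 of 9 leave-one-out fits. None of the 13 passed edgeR's test in the CCDC97 knock-down, where 2 were higher at an unadjusted p under 0.05 and DESeq2's Wald test called 2 higher. With GC and length adjusted, 3 were called higher there, and 3 higher and 2 lower in the TTC33 knock-down. Of all 18299 genes, that adjustment called 3547 in the CCDC97 knock-down and 5089 in the TTC33 knock-down. Of 10 other regulators of alpha subunits tested, 2 rose and 0 fell in the TTC33 knock-down by edgeR's test, where 6.5% of all genes rose and 5.44% fell. With GC and length adjusted, 3 were called higher and 2 lower there. Those lower were GPSM1 (-0.49, adjusted p = 8.78e-06) and GPRIN3 (-0.24, adjusted p = 0.0176). GPRIN1, a protein that binds active GNAO1 and promotes neurite growth, had 47.8 ± 2.28 CPM in the TTC33 knock-down, 26.2 ± 1.70 CPM in the CCDC97 knock-down and 33.5 ± 2.24 CPM in control. It rose in the TTC33 knock-down (0.51, adjusted p = 0.00412) in all 9 leave-one-out fits and fell in the CCDC97 knock-down (-0.35, adjusted p = 0.0394) in 2 of 9. The GC and length adjustment gave 0.32 in the TTC33 knock-down (adjusted p = 0.0123) and -0.22 in the CCDC97 knock-down, where GPRIN1 no longer passed (adjusted p = 0.0964). RAP1GAP, a GTPase-activating protein for Rap1 that binds Gi/o subunits, had 12.99 ± 0.60 CPM in the TTC33 knock-down, 6.78 ± 0.81 CPM in the CCDC97 knock-down and 8.85 ± 0.84 CPM in control, and rose in the TTC33 knock-down (0.55, adjusted p = 0.0112). That call held in 6 of 9 leave-one-out fits.

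Of 43 receptors listed as coupling to Gi/o, 22 passed the filter on low counts, which asks for 3 libraries with at least 0.323 CPM. DRD2, SSTR1 and GRM3 passed it only through the TTC33 knock-down libraries, which selects for high values there, so their values are given with no test. Of the other 19, 5 rose by edgeR's test in the TTC33 knock-down (GABBR2, GRM8, CHRM4, GRM2 and ADORA1) and none fell, where 6.5% of all genes rose and 5.44% fell. Of these 5, GABBR2, GRM8 and CHRM4 passed in all 9 leave-one-out fits, GRM2 in 6 and ADORA1 in 2. All 5 passed with the GC and length adjustment, which called HTR1B (-0.89, adjusted p = 0.00767) and GABBR1 (-0.23, adjusted p = 0.0135) lower. The remaining settings were counted only over all 22, DRD2, SSTR1 and GRM3 included, so their counts of higher genes are a description. DESeq2's Wald test called 8 higher and 0 lower, and the replicate block and the summed R12 and U counts 6 higher each. Leave-one-out fits called 0 to 2 of the 22 lower, and 1 was lower at an unadjusted p under 0.05. GABBR2, which couples the GABA-B receptor to its G protein, had 17.9, 17.7 and 20.0 CPM in the TTC33 knock-down, against 8.32, 8.19 and 8.21 CPM in control (log2 fold change 1.17 ± 0.098, edgeR adjusted p = 5.62e-05), and passed in all 9 leave-one-out fits. Every TTC33 knock-down library lay above every control library. DRD2, the D2 dopamine receptor, had 63, 64 and 77 counts in TTC33 knock-down replicates 1, 2 and 3, against 11, 8 and 10 in control. Its level was 2.40 ± 0.49 CPM in the TTC33 knock-down, 0.40 ± 0.061 CPM in the CCDC97 knock-down and 0.28 ± 0.054 CPM in control. SSTR1, a somatostatin receptor, had 25, 22 and 24 counts in the TTC33 knock-down, against 3, 2 and 1 in control.

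GRM8, CHRM4, GRM2, GRM3 and ADORA1 were named after their values were seen. GRM3 had 0.56 ± 0.15 CPM in the TTC33 knock-down, 0.38 ± 0.060 CPM in the CCDC97 knock-down and 0.23 ± 0.048 CPM in control. GRM2 had 1.15 ± 0.20 CPM in the TTC33 knock-down, 0.65 ± 0.13 CPM in the CCDC97 knock-down and 0.425 ± 0.15 CPM in control. GRM8, a metabotropic glutamate receptor, had 46 to 66 counts per TTC33 knock-down library, against 12 to 17 in control (log2 fold change 2.18), and CHRM4, the M4 muscarinic receptor, had 67 to 97 in the TTC33 knock-down against 17 to 29 in control (2.03). ADORA1, the A1 adenosine receptor, had 4.75 ± 0.85 CPM in the TTC33 knock-down against 3.27 ± 0.32 CPM in control (0.53), passed in 2 of 9 leave-one-out fits, and had 0.35 with the GC and length adjustment (adjusted p = 0.0432). In the CCDC97 knock-down 1 of the 22 receptors passed, against 4.56% of all genes. S1PR1, a sphingosine-1-phosphate receptor, rose to 18.0 ± 1.08 CPM, against 13.4 ± 0.61 CPM in control (0.43 ± 0.093, edgeR adjusted p = 0.0287), in 4 of 9 fits. CHRM3, a Gq-coupled muscarinic receptor, had 81, 51 and 64 counts in the TTC33 knock-down, against 12, 3 and 10 in control. It too passed the filter only through the TTC33 knock-down and is given with no test. Of the other 12 Gq-coupled receptors none rose in the TTC33 knock-down by edgeR's test, while P2RY1 (-0.48, adjusted p = 0.0288) and F2R (-0.37, adjusted p = 0.0246) fell, each in 4 of 9 fits. Over all genes 6.5% rose and 5.44% fell in the TTC33 knock-down, and 2.07% rose and 2.49% fell in the CCDC97 knock-down. Of 17 Gs-coupled receptors tested, GPR3 rose (0.82, adjusted p = 0.034) and GPR12 fell (-0.70, adjusted p = 0.0408) in the TTC33 knock-down, GPR3 in 4 of 9 and GPR12 in 2 of 9 leave-one-out fits. DESeq2's Wald test, the replicate block and the summed R12 and U counts called no Gs-coupled receptor lower there. PTGER4 rose (0.61, adjusted p = 0.0247) and GPR12 fell (-1.25, adjusted p = 0.0081) in the CCDC97 knock-down, PTGER4 in 4 of 9 and GPR12 in 7 of 9 fits. The median of the Gs-coupled list was -0.039 in the TTC33 knock-down, against -0.16 in the CCDC97 knock-down. That of the Gq-coupled list was 0.14 in the TTC33 knock-down, against -0.016 in the CCDC97 knock-down. Both medians are a description, since they include genes that passed the filter only through a single group. These were CHRM3 and CRHR2 (TTC33 knock-down), CCKBR (CCDC97 knock-down) and VIPR2 (control).

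**Figure D5:**
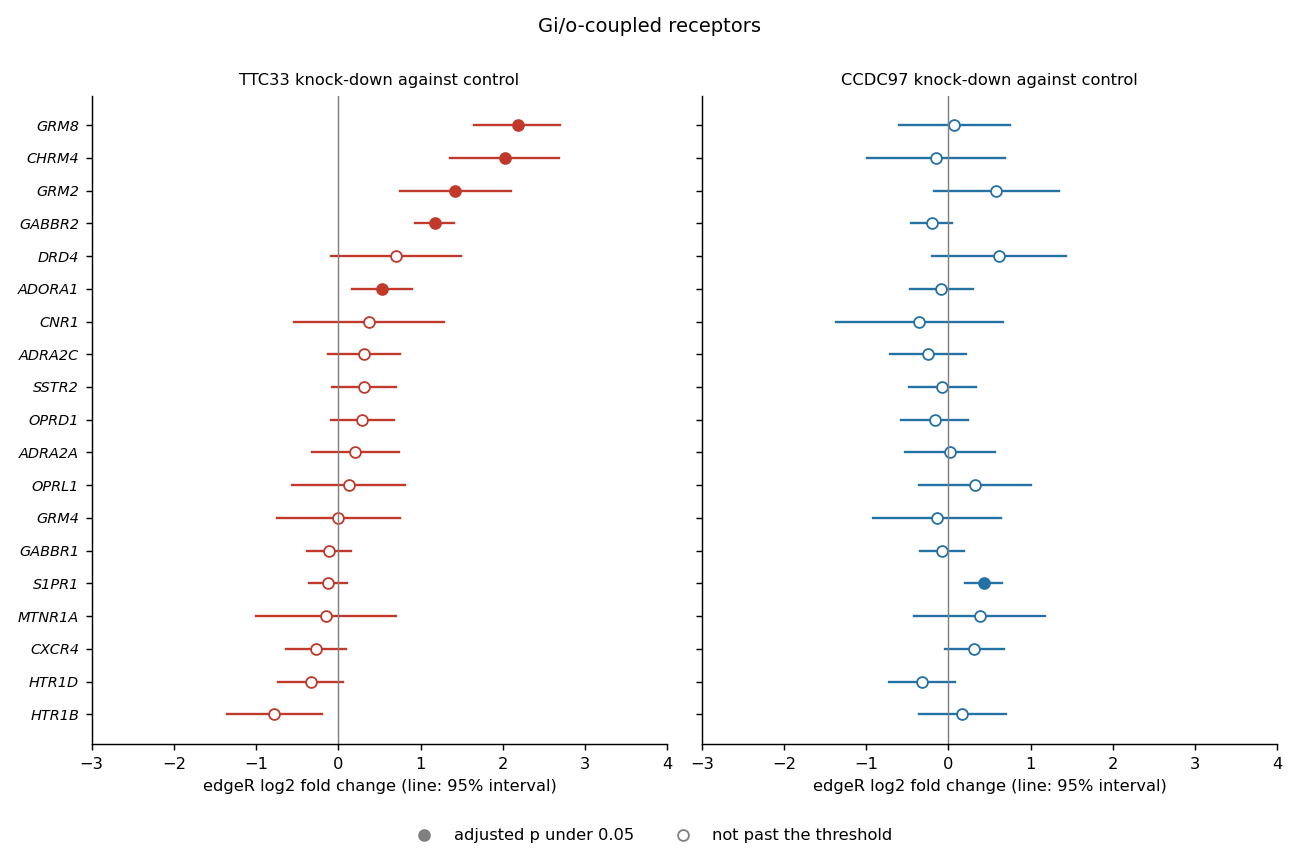
edgeR log2 fold change with 95% interval (horizontal axis) of 19 Gi/o-coupled receptors, those tested less DRD2, SSTR1 and GRM3, ordered by the value in the TTC33 knock-down; filled circles passed the threshold. In the TTC33 knock-down (left) 5 receptors lie past the threshold to the right and none to the left, and in the CCDC97 knock-down (right) S1PR1 does, at 0.43.

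KCNJ3 encodes a subunit of the GIRK channel that beta-gamma pairs released from Gi/o open. It had 21, 21 and 14 counts in TTC33 knock-down replicates 1, 2 and 3, 1, 1 and 0 in the CCDC97 knock-down, and 1, 0 and 0 in control. The ratio of summed counts, scaled by library size, was 67.9 for the TTC33 knock-down against control. It rests on 1 count in control and is a description with little precision. KCNJ3 passed the filter on low counts only through the TTC33 knock-down, so no test of it is given. KCNJ5, the only other GIRK subunit of 4 past that filter, reached its level in 1 library of each group. Without the TTC33 knock-down KCNJ5 would not have passed either, so it too is given with no test. It had 0.31 ± 0.10 CPM in the TTC33 knock-down, 0.23 ± 0.20 CPM in the CCDC97 knock-down and 0.34 ± 0.062 CPM in control.

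Adenylyl cyclases, which Gs stimulates and Gi/o subunits inhibit, passed edgeR's test in neither direction in the TTC33 knock-down (0 of 7 tested, median 0.17). At an unadjusted p under 0.05, 3 were higher and 1 lower, and DESeq2's Wald test called 1 higher. The median of the 7 was 0.039 when adjusted for GC and length. That setting, which called 5089 of all 18299 genes, called 2 of the 7 higher and 3 lower. Those lower were ADCY1 (-0.30, adjusted p = 0.000193), ADCY3 (-0.26, adjusted p = 0.000737) and ADCY7 (-0.36, adjusted p = 0.00509). Of the same 7, with a median of -0.19, 2 fell in the CCDC97 knock-down, where 2.49% of all genes fell. ADCY3 had 53.9 ± 6.43 CPM there, against 81.2 ± 1.68 CPM in control (log2 fold change -0.59 ± 0.096, edgeR adjusted p = 0.00688), and passed in all 9 leave-one-out fits. ADCY1 had 51.0 ± 4.16 CPM in the CCDC97 knock-down against 63.4 ± 0.27 CPM in control (-0.31, adjusted p = 0.0423) and passed in 2 of 9. Of 8 cyclic AMP phosphodiesterases tested, 2 fell in the TTC33 knock-down, where 5.44% of all genes fell. PDE8B had 2.16 ± 0.56 CPM in the TTC33 knock-down against 4.05 ± 0.086 CPM in control (-0.89, adjusted p = 0.00905) and passed in 9 of 9 fits. PDE3B had 36.5 ± 5.05 CPM in the TTC33 knock-down against 50.8 ± 0.94 CPM in control (-0.48, adjusted p = 0.0108) and passed in 7 of 9. Of 8 effectors of cyclic AMP, PRKAR2B, a regulatory subunit of protein kinase A, fell to 59.9 ± 15.4 CPM in the TTC33 knock-down, against 92.6 ± 2.03 CPM in control (-0.63, adjusted p = 0.0325), in 4 of 9 fits. None of the 7 effectors of Gq/11 passed edgeR's test in either knock-down; 1 was higher at an unadjusted p under 0.05 in each, DESeq2's Wald test called 0, and the GC and length adjustment called 1 higher and 1 lower in the TTC33 knock-down, against 0 in the CCDC97 knock-down. Of 7 receptor kinases and arrestins none passed edgeR's test either. None of them was under an unadjusted p of 0.05 in the TTC33 knock-down, and 1 was lower in the CCDC97 knock-down, where DESeq2's Wald test and the GC and length adjustment each called 1.

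Of 15 neuronal markers, 11 were tested, and 6 rose and 1 fell in the TTC33 knock-down, where GNAO1 was higher too and where 6.5% of all genes rose and 5.44% fell. SYT1, 1 of the 6, passed the filter only through the TTC33 knock-down, and 5 of the other 10 rose. Leave-one-out fits, counted over the whole list with SYT1 included, called 4 to 8 higher and 0 to 1 lower. Their counts of higher genes are therefore a description. In the CCDC97 knock-down none passed edgeR's test, 2 were higher at an unadjusted p under 0.05, and DESeq2's Wald test called 1. The GC and length adjustment called 2 higher there, and 3547 of all 18299 genes in either direction. The summed level of the markers was 783.7 to 884.0 CPM in the TTC33 knock-down, 685.8 to 725.8 CPM in the CCDC97 knock-down and 680.8 to 701.6 CPM in control. SYP, a synaptic vesicle protein, had 63.3 ± 7.88 CPM in the TTC33 knock-down, 18.1 ± 1.60 CPM in the CCDC97 knock-down and 13.5 ± 1.17 CPM in control. SNAP25, a fusion protein of synaptic vesicles, had 9.68 ± 1.08 CPM in the TTC33 knock-down, 4.17 ± 0.32 CPM in the CCDC97 knock-down and 4.74 ± 0.34 CPM in control. NEFL, a neurofilament subunit, fell to 151.9 ± 5.22 CPM in the TTC33 knock-down, against 187.6 ± 2.01 CPM in control. With genes left out that passed the filter only through the TTC33 knock-down, 1 of 7 kidney lineage markers rose there. Of the others, 0 of 3 fibroblast, 0 of 2 endothelial and 0 of 1 blood cell markers did. EYA1, of the kidney lineage, had 19.2 ± 1.63 CPM in the TTC33 knock-down, against 14.4 ± 0.33 CPM in control (0.42, adjusted p = 0.0134), and passed in 5 of 9 leave-one-out fits. LUM, of fibroblasts, had 0.65 ± 0.38 CPM in the TTC33 knock-down, against 0.10 ± 0.028 CPM in control, and HBA1, of red blood cells, 0.67 ± 0.28 CPM in the TTC33 knock-down, against 0.18 ± 0.068 CPM in control; both passed the filter only through the TTC33 knock-down. The neuronal markers DCX and ELAVL4 were at most 0.028 CPM on average in every group. The part of these markers in the GNAO1 difference was not tested.

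The 5 genes whose log2 CPM was most like that of GNAO1 over the 9 libraries, among 11505 genes that averaged 5 CPM or more, were MADD, TRAM2, NELFCD, MID1IP1 and BICDL1. Pearson's r was 0.9971, 0.9893, 0.9892, 0.9887 and 0.9881, and the libraries share their groups and the GC trend. BICDL1 had a log2 fold change near that of GNAO1 in the TTC33 knock-down, 1.29, with 18.6 ± 2.18 CPM in the TTC33 knock-down, 6.11 ± 0.88 CPM in the CCDC97 knock-down and 7.60 ± 0.17 CPM in control. MADD differed less, by 0.36 in the TTC33 knock-down and by -0.13 in the CCDC97 knock-down.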

How the data were processed

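The deposited tables hold raw read counts per gene. Per the submitters' processing notes, the tools were Trimmomatic 0.39, HISAT2 and HTSeq 2.0.1, with the build GRCh38. Not given in the sources used here are the annotation release, the strand setting and what sets apart the 2 tables of each sample, marked R12 and U. The R12 counts were used, with the sum of both as an alternative; U counts were 6.55% to 11.9% of the sum. Rows that name no gene held 33.4% to 57.9% of the R12 counts and were left out.

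Genes were filtered with filterByExpr, scaled with TMM factors and fitted over all 9 libraries with edgeR 4.0.16 in R 4.3.3 (quasi-likelihood, a term per group, 6 residual degrees of freedom, common BCV 0.109). Two-sided p-values were adjusted over 18299 genes (Benjamini-Hochberg) and read at a threshold of 0.05. Per-library log2 values use a prior count of 2. The GC and length adjustment subtracts trends fitted per library with mgcv 1.9.3 and GENCODE release 29 (98.6% of genes). Other alternatives were DESeq2 1.42.0 size factors and Wald test, no filter, the replicate block, 2-group fits and leaving out each library. For a comparison with control, 3 of the 9 leave-one-out fits drop a library of the other knock-down. Both compared groups stay whole in those fits, so they probe that comparison less. Chi-square per degree of freedom between replicates was 3.56 to 37.9, so none agreed within counting error.

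The members and all gene lists were chosen with earlier results of these data known. Named genes are the members, both targets, up to 3 genes past the threshold with the smallest adjusted p per list and comparison with control, and the 5 genes most like GNAO1; neuronal markers and receptors beyond these were named after their values were seen. Protein and microRNA sequences were not used here.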

Additional observations from a re-analysis of the deposited data

Results flagged for a closer look

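Results for 3 members differed between the TTC33 and the CCDC97 knock-down by the direct contrast of edgeR's test. GNA11 was higher in the TTC33 knock-down by a log2 difference of 0.632 (adjusted p = 0.00345), with all 3 TTC33 knock-down libraries above all 3 CCDC97 knock-down libraries. GNAI1 was lower by a log2 difference of -0.437 (adjusted p = 0.0329), with overlapping libraries. GNAZ was lower by a log2 difference of -0.328 (adjusted p = 0.0472), without overlap. No result for GNAO1 is listed, since it has no test here, and groups of 3 libraries are too small for a check of single outlying libraries.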

How the results depend on the processing

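GNAO1 kept its direction in all 16 alternative settings of each comparison; its log2 difference between the knock-downs ranged from 1.79 to 2.1 when a library was left out. Among members other than GNAO1, 1 was called in the TTC33 knock-down, 0 in the CCDC97 knock-down and 3 between the knock-downs. Leave-one-out fits called 0 to 5 in the TTC33 knock-down, 0 to 1 in the CCDC97 knock-down and 1 to 6 between them. With no filter on low counts 4 were called in the TTC33 knock-down, 1 in the CCDC97 knock-down and 5 between them; the GC and length adjustment called 2 in the TTC33 knock-down, 2 in the CCDC97 knock-down and 5 between them. DESeq2's Wald test called 2 in the TTC33 knock-down, and fits of only the 2 groups compared called 1 in the CCDC97 knock-down and 1 between the knock-downs.

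Over all genes 2186 were called in the TTC33 knock-down, 835 in the CCDC97 knock-down and 3943 between the knock-downs. Leave-one-out fits called 552 to 6512 in the TTC33 knock-down, 203 to 1981 in the CCDC97 knock-down and 1528 to 7767 between them. No filter on low counts called 3821 in the TTC33 and 1369 in the CCDC97 knock-down, the GC and length adjustment 5089 in the TTC33 and 3547 in the CCDC97 knock-down, and the DESeq2 Wald test 1471 in the CCDC97 knock-down. The adjustment turned the CCDC97 knock-down calls from 379 higher and 456 lower (45.4% higher) to 2033 higher and 1514 lower (57.3% higher). Fits of only the 2 groups called 1339 in the CCDC97 knock-down and 1479 between the knock-downs.

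With the replicate number as a block, 756 genes were called in the TTC33 knock-down, 240 in the CCDC97 knock-down and 1857 between them. Among members other than GNAO1 the block left 0 in the TTC33 knock-down, 0 in the CCDC97 knock-down and 1 between them. Deviations of same-numbered libraries from their group means had correlations of -0.504 to 0.0936. Whether such libraries were handled together is not in the labels, and these correlations cannot settle it.

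Small differences changed sign. With the GC and length adjustment these were GNAI1 (0.00706), GNAS (-0.0797) and GNA12 (-0.0183) in the TTC33 knock-down, GNA12 (0.0502) in the CCDC97 knock-down, and GNAI2 (-0.0175), GNAS (-0.0542) and GNA12 (-0.0686) between the knock-downs. With no filter they were GNAI2 (-0.0149) and GNAZ (-0.017) in the CCDC97 knock-down. Leave-one-out fits gave -0.0657 to 0.0675 for GNAI2, -0.0734 to 0.0712 for GNAZ, -0.0821 to 0.0717 for GNA13 and -0.0668 to 0.0698 for GNA12 in the CCDC97 knock-down. Between the knock-downs they gave -0.189 to 0.128 for GNAQ and -0.00618 to 0.13 for GNA12. The causes were not tested beyond the settings' own construction: leaving out a library leaves fewer samples, and no filter raises the number of genes tested. Counts under about 30 per library, as for SSTR1 and KCNJ3, limit the precision of a fold change.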
